A study of Mus musculus with 16 samples.

Results

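The genes described here are the mouse protein-coding genes named Zfp plus a number that lie on chromosomes 2, 4, 7, 13 and 17 of the GENCODE vM21 annotation (GRCm38, mm10). There are 216 of them among 21853 protein-coding genes: 25 on chromosome 2, 30 on chromosome 4, 89 on chromosome 7, 31 on chromosome 13 and 41 on chromosome 17. The rule uses a gene's name and chromosome and no methylation value. They are compared with all protein-coding genes and with the 149 Zfp genes of the other chromosomes.

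DNA methylation was measured by whole genome bisulphite sequencing in 8 libraries of resting B cells (CD43-) and 8 of naive T cells (CD4+CD62L+), both sorted with magnetic beads from the spleens of untreated C57BL/6J mice aged 6 to 8 weeks. Each cell type had 4 libraries from males and 4 from females, and within each sex 2 were made with conventional bisulphite (BS), which reads 5mC and 5hmC together, and 2 with oxidative bisulphite (oxBS), which reads 5mC only. The descriptions speak of pooled mice and name no mouse, so p-values measure the spread between libraries, which may be technical, and BS and oxBS libraries may share DNA. A level is the share of calls that were methylated, pooled over the CpGs of a window: 500 bp on either side of the annotated gene start (TSS window), the whole gene (gene body), or the last exon. Where a level lies between 0 and 100%, partial methylation in every cell and a mixture of cells cannot be told apart.

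Zinc finger proteins of the KRAB type carry a tandem array of zinc fingers that reads DNA and a KRAB domain that recruits the corepressor TRIM28, which in turn brings SETDB1, heterochromatin proteins and DNA methylation to the bound site. Their best known targets are retrotransposons, and their genes arose by repeated duplication, so that near-identical copies sit side by side. In most of these genes the fingers are encoded by a single long last exon. Such 3′ exons are known for dense DNA methylation and heterochromatin, while the promoters are mostly CpG-rich.

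The name Zfp does not by itself make a gene a KRAB gene. A KRAB sequence pattern was found in the translated coding sequence of 153 members and not in the other 63, among them Zfp36, whose fingers bind RNA, and Zfp335, Zfp217, Zfp318, Zfp408 and Zfp523. The pattern was strict enough to miss diverged domains, so absence of a match says only that these letters were not found. The members are therefore called Zfp genes here. The median member had 11 fingers by pattern, and of the 213 members with at least 1 finger, 183 had all of them in the last exon. In physical order 147 members lay within 100 kb of another and formed 36 runs, 18 of which held 3 or more genes. The longest, on chromosome 7, held the 15 genes from Zfp84 to Zfp146.

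Stretches of DNA that show the range of the promoters are printed first, with every CpG in capitals. Each is the 250 bases before the RefSeq gene start, on the gene's strand (GRCm38.p6), and 187 members had such an entry. Zfp592 (chr7:80993434-80993683) stands for the CpG-rich, unmethylated class and Zfp57 (chr17:37000913-37001162) for the methylated class, at 80% or more in the TSS window. Zfp985 (chr4:147553027-147553276) lies just under that class, at 79.7%. Zfp626 (chr7:27806946-27807195) and Zfp710 (chr7:80024564-80024813) stand for TSS windows that were called between the cell types.
Zfp592: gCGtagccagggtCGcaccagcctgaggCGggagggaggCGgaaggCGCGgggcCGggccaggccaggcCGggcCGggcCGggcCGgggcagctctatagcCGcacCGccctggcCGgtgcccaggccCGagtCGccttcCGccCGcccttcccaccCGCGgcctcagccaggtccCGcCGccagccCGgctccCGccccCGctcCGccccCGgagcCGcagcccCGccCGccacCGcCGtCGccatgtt
Zfp57: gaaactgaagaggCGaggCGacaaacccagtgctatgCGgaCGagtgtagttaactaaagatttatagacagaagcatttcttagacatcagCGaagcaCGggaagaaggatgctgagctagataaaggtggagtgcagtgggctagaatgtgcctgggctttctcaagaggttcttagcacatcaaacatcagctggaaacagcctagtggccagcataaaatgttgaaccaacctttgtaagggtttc
Zfp985: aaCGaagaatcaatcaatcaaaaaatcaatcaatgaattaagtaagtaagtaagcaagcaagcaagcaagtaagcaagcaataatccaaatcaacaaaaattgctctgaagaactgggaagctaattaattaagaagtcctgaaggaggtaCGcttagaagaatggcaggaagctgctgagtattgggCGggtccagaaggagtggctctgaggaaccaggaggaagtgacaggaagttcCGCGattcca
Zfp626: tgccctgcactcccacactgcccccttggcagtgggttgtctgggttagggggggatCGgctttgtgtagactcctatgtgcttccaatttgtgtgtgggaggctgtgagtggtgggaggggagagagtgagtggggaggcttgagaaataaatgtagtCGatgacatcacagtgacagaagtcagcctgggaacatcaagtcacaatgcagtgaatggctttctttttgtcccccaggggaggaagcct
Zfp710: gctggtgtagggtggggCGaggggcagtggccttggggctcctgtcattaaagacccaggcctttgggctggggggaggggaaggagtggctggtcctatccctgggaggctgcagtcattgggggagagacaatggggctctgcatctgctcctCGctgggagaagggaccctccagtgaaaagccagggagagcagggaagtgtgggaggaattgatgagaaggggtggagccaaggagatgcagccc
The stretch of Zfp592 holds 33 CpGs, those of Zfp57 and Zfp985 hold 6 and 5, and those of Zfp626 and Zfp710 hold 2 each. Over the printed bases of Zfp592 the level was at most 0.990% in any B cell library and 1.02% in any T cell library. In Zfp57 it ran from 89.8 to 100% in B cells (median 95.2%) and from 90 to 95.8% in T cells (median 93.8%). In Zfp985 the B cell libraries lay between 74.1 and 87.0% and the T cell libraries between 72.0 and 85.3%, so that the cell types overlapped in both genes. The 2 CpGs of Zfp626 overlapped too, at 92.3 to 100% in 6 B cell libraries (median 96.4%) and 85.7 to 100% in 7 T cell libraries (median 100%), and the difference of its TSS window described further on was not seen in the printed bases. The 2 CpGs of Zfp710 had a median of 2.17% over 8 B cell libraries and of 45.5% over the 7 T cell libraries with enough calls, at a median depth of 13 calls per library.

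Stretches of last exon that carry the differences between B and T cells are shown in the same way. All are coding sequence that overlaps blocks of CpGs described further on, with a few bases beyond them: Zfp408 (chr2:91645677-91645916, minus strand), Zfp120 (chr2:150117695-150117919, minus strand), Zfp51 (chr17:21463501-21463602, plus strand) and Zfp523 (chr17:28205126-28205206, plus strand).
Zfp408: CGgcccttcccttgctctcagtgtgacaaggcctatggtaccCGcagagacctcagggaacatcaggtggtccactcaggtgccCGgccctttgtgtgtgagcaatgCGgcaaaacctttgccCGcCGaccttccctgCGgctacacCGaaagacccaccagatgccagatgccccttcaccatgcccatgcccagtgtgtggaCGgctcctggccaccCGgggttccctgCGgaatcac
Zfp120: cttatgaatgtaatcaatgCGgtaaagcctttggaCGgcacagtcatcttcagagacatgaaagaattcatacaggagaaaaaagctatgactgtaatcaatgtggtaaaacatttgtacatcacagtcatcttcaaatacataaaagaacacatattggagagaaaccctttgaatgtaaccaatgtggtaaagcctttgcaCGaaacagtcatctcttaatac
Zfp51: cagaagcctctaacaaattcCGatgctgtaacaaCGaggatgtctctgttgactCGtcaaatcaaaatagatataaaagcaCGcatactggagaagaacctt
Zfp523: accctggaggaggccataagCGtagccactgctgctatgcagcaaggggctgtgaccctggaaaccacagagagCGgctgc
The 11 CpGs of the Zfp408 stretch were at 95.0 to 100% in B cells (median 98.2%) and at 16.0 to 24.1% in T cells (median 20.7%). The 3 CpGs of Zfp120 had a median of 100% in B cells, against 26.2% in T cells, with 7 and 6 libraries deep enough. The 4 CpGs of Zfp51 were at 58.3 to 94.7% in B cells, while none of the 217 calls in the 8 T cell libraries was methylated. If all calls were independent, counting error would allow a level of up to 1.38%. Calls of 1 read are not independent, so the limit is wider than this. At Zfp523 the order was the other way round, with a median of 30.4% in B cells against 90.4% in T cells over 2 CpGs. These stretches were picked for their difference, and their levels are a description.

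The libraries held 123346598 to 170653234 calls, a mean of 5.64 to 7.80 calls per CpG, and covered 92.4 to 93.5% of CpGs. Members had a median of 8.95 calls per CpG and library in TSS windows, 7.83 in gene bodies and 7.92 in last exons. In the genome as a whole 79.5 to 81.5% of calls were methylated in B cells, 79.5 to 79.7% in BS and 78.5 to 79% in oxBS libraries of T cells. B cell marker genes had lower TSS levels in B cells in 6 of 8 cases and T cell markers lower levels in T cells in 6 of 9 by the test used below, which goes with the labels. The same held for Cd8a and Cd8b1 in T cells, marker genes of cytotoxic T cells, at 46.4% and 20.2% against 82.5% and 88.6% in B cells. A CD4+ sort should hold few cytotoxic T cells. Whether these values come from such cells or from CD4+ cells themselves was not tested. Of 6 myeloid markers 1 was called (Itgam, 48.0 ± 7.33% in B and 32.3 ± 9.54% in T cells, SD, n = 8), and of 2 NK cell markers none, both of which were at 80.4% or more in both cell types. The part of other cells in the results was not tested.

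Not every copy could be measured. A window was tested when at least 5 libraries per cell type had at least 20 calls over at least 3 CpGs, which left out 11 members at TSS windows (5.09%, against 9.63% of all genes), 5 at gene bodies and 15 at last exons (6.94%, against 15.2%). Zfp965, Zfp966, Zfp967, Zfp968 and Zfp969, KRAB genes of chromosome 2, had 0 calls in all windows of all 16 libraries. In the untested members a median of 100% of the 32-base words in the TSS window occurred more than once in the genome, against 1.03% in the tested members, and at last exons the medians were 100% and 3.58%. Repeated words were not limited to the untested members: they made up 90% or more of the TSS window in 4 tested members and reached 95.9%. Their part in the levels was not tested.

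The typical Zfp gene was unmethylated at its start and almost fully methylated in its last exon. Averaged over the 16 libraries, the median TSS level of 205 members was 3.70%, against 5.35% over 19748 genes and 2.23% over the other Zfp genes. At or below 20% were 163 members (79.5%, against 64.4% of all genes and 85.6% of the other Zfp genes). At or above 80% were 21 (10.2%, against 21.4% and 5.48%), and 21 lay between. In the 250 bp after the gene start the median level was 0.727% in B cells and 0.306% in T cells, and it climbed to 92.0% and 89.8% between 1250 and 1500 bp. In the same bin all genes were at 84.3% and 82.5%, and the other Zfp genes at 86.0% and 81.9%. The unmethylated stretch at the start was thus short, as the plot of levels around gene starts and ends shows.

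**Figure D1:**
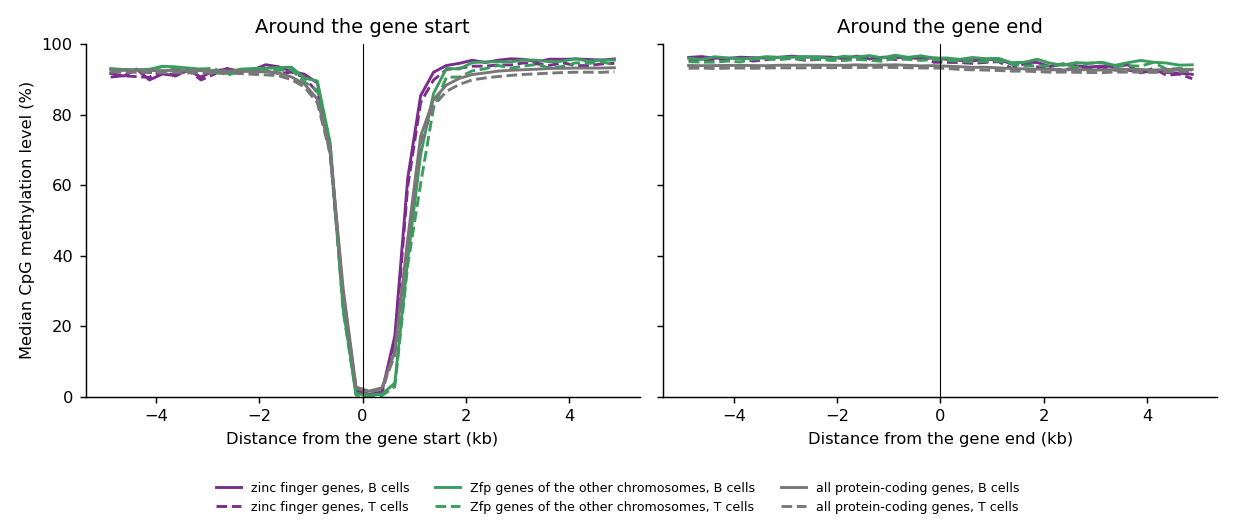
Median methylation level (percent) in 250-bp bins within 5 kb of the gene start and of the gene end, for the Zfp genes of the 5 chromosomes, the other Zfp genes and all protein-coding genes; solid lines are B cells and dashed lines T cells. All sets dip to near 0 at the start, and past the start each set rises to above 90% in B cells.

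Members with a KRAB pattern had a median TSS level of 4.47% and those without one of 2.17%. Levels went with the number of CpGs in the window. The low class had a median of 40 CpGs, the class between had 14 and the high class 11. Spearman's rho between CpG count and level was −0.68 over 205 members and −0.80 over 19748 genes, given as a description, since base composition and depth are shared by the points. Among the lowest members were Zfp51 (0.106%), a KRAB gene of chromosome 17, and Zfp592 (0.124%).

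The highest TSS levels belonged to Zfp352 (96.8%), Zfp229 (96.7%), Zfp473 (96.4%), Zfp831 (96.0%), Zfp708 (94.5%) and Zfp977 (94.3%). Zfp352 is an intronless gene known for its expression in the early embryo, and its lowest library was at 95.0% in B cells and its lowest T cell library at 91.5%. For Zfp229 and Zfp473 the annotated gene start is not the only one. At the start of the transcript with the longest coding sequence, 2929 and 2433 bp away, they were at 3.28% and 0.198%. Over all members 24 had such a start more than 500 bp from the gene start, and of the 21 members in the high class 5 were at or below 20% there and 16 stayed at or above 80%. Zfp352, Zfp831, Zfp708 and Zfp977 have 1 start by this measure. None of the 6 was called between B and T cells.

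Chromosome 4 stood apart. Its 27 tested members had a median TSS level of 71.7%, while the medians were 5.42% on chromosome 2, 3.16% on chromosome 7, 4.26% on chromosome 13 and 2.03% on chromosome 17, and all 1218 tested genes of chromosome 4 had a median of 3.65%. KRAB genes of chromosome 4 had a median of 79.7% (17 tested) against 3.80% for the 125 KRAB genes of the other 4 chromosomes. The difference was not tested, because neighbouring copies are not independent of each other. On chromosome 4, 10 members were at or above 80% and 7 between 20 and 80%, and 13 of these 17 lay in 1 stretch, chr4:145510759-147848366, which holds 18 members, all with a KRAB pattern.

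Of the 15 tested genes of that stretch 13 were at 67.2 to 91.4% (median 83.8%), and Zfp984 (12.2%) and Zfp933 (1.84%) at its far end were low. The TSS windows of all 18 members of the stretch, tested or not, held 5 to 27 CpGs, with a median of 10.5. Gene bodies of the stretch were at 73.5 to 91.5%. In the TSS windows of the 15 genes 0.206 to 95.9% of 32-base words were repeated in the genome, with a median of 63.3%. Only 2 were under 50%, Zfp933 and Zfp985 with a level of 79.7%, and the part of reads from neighbouring copies in these values was not tested. At transcript starts the median of chromosome 4 was 69.8%.

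**Figure D2:**
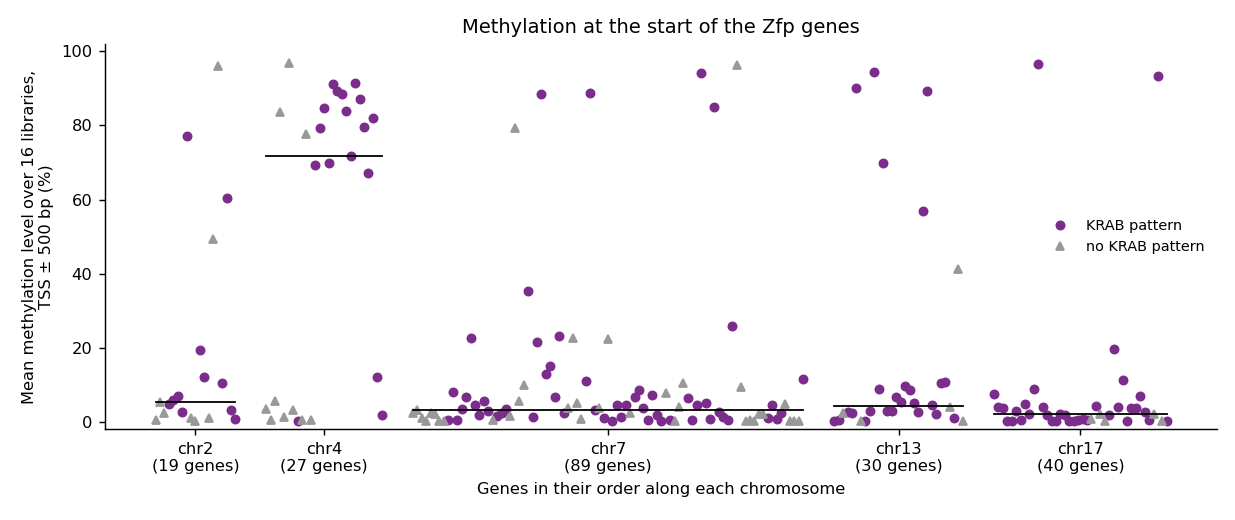
TSS level (percent, mean of the libraries) of each tested Zfp gene, in gene order along each of the 5 chromosomes; circles have a KRAB pattern, triangles have none, and the black line is the median of the chromosome. The median sits at 71.7% on chromosome 4 and between 2.03 and 5.42% on the others.

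Gene bodies of 211 members had a median of 74.4%, against 77.7% over all genes and 71.7% over the other Zfp genes. Last exons were at a median of 95.9% in 201 members, 95.5% in the other Zfp genes and 92.5% over 18522 genes, and the 10th percentiles were 86.7%, 82.1% and 61.2%. KRAB genes had a median of 96.3% there and the others of 94.9%. Members also varied little between libraries at last exons, with a median SD over 8 libraries of 1.40 points in B and 1.55 in T cells, against 2.26 and 2.39 over all genes. At gene bodies the SDs were larger than the genome's, 2.84 and 2.62 points against 2.14 and 2.14. Depth differed as well. Last exons had a median of 218 calls per library over all members and 108.5 over all genes. For gene bodies these medians were 1244.75 and 1789.5. Spread from counting calls depends on depth and level, and its part in these SDs was not tested.

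The 3 last exons at or below 20% belonged to members without a KRAB pattern. Zfp771 (0.264%) lay between 0.0939 and 0.794% in B cell libraries and between 0.0706 and 0.341% in T cell libraries. Zfp36, which encodes tristetraprolin, an mRNA decay factor, was at 4.80% in the last exon and 4.0% over the gene body, and Zfp580 was at 4.82% in the last exon. Zfp51 (43.7%) was the lowest KRAB gene and is described below, since its level differed between the cell types. The highest last exons were those of Zfp808 (97.9 ± 2.03% in B and 99 ± 1.06% in T cells, SD, n = 8) and Zfp959 (99.1 ± 0.623% and 97.5 ± 2.14%).

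B and T cells were compared with a quasi-binomial model that also held sex and assay, fitted to all protein-coding genes, and a gene was called at a p under 0.05 after Benjamini-Hochberg adjustment together with pooled levels at least 10 points apart. At TSS windows 4 of 205 members were called, 3 higher in B cells and 1 lower, and the same rule called 3.14% of all genes. At gene bodies 5 of 211 were called, all higher in B cells, and at last exons 10 of 201, 9 of them higher in B cells. In either direction the rule called 2.66% of all genes at gene bodies and 5.45% at last exons. Of these genes 460 of 562 and 594 of 1009 were higher in B cells. The members' shares lay near or under these backgrounds. Without the limit on size 13, 39 and 23 members passed the adjusted p, and 44, 60 and 38 had an unadjusted p under 0.05. Over all genes 1543 of 19748, 5040 of 21162 and 2215 of 18522 passed the adjusted p. An unadjusted p under 0.05 was found in 4709, 7623 and 4050 of all genes.

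Most members sat slightly higher in B cells, as did genes in general. The median difference was 0.40 points at TSS windows, 1.53 at gene bodies and 0.36 at last exons, and over all genes it was 0.26, 1.02 and 0.39. B cells were higher in 151 of 205, 168 of 211 and 129 of 201 members. Library medians over members, in B and T cells, overlapped in BS libraries at TSS windows (2.97 to 4.03% and 3.28 to 3.49%). In oxBS libraries they did not (3.01 to 4.60% and 2.42 to 2.83%). At last exons they also overlapped in BS libraries (95.9 to 96.5% and 95.9 to 96.4%). Those of oxBS libraries were apart (95.8 to 96.1% and 94.7 to 95.2%). At gene bodies they did not overlap in either assay. All 8 B cell libraries lay above all 8 T cell libraries, or the reverse, in 3 of 203 members at TSS windows, 7 of 211 at gene bodies and 10 of 199 at last exons that had 16 values, or 1.48%, 3.32% and 5.03%, against 3.09%, 7.01% and 5.99% of all genes. The called members are described below by window, with a two-sided exact permutation test over the libraries beside the model, for which 0.000155 is the smallest p that 8 against 8 libraries can give.

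**Figure D3:**
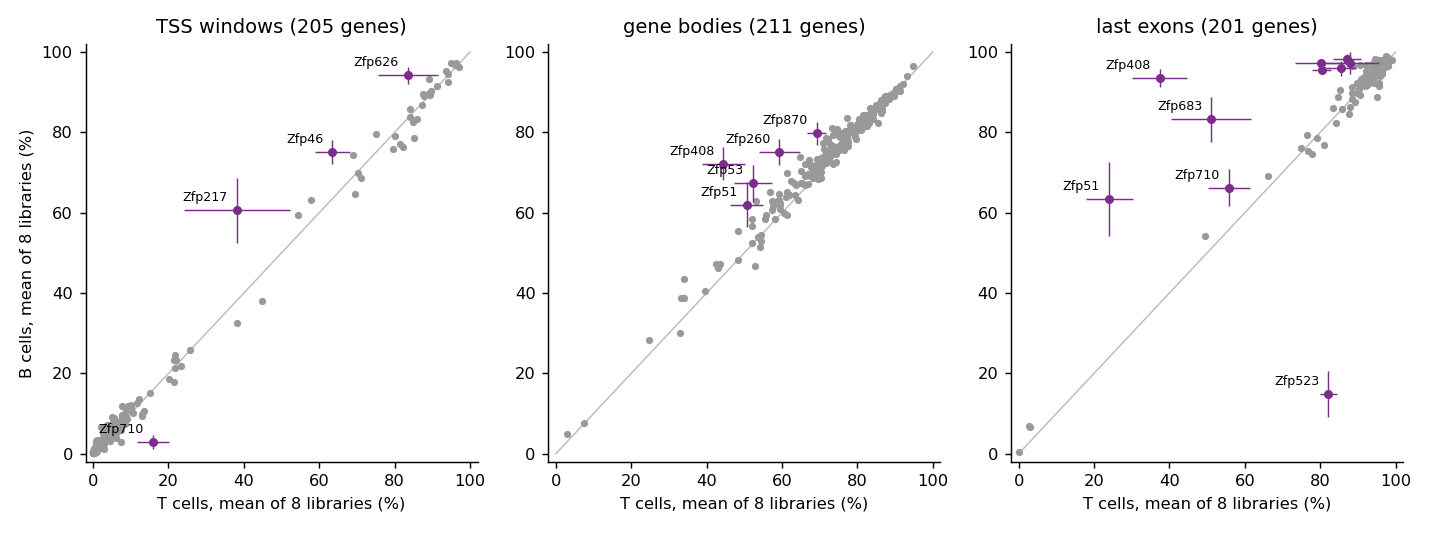
Level of each tested Zfp gene in T cells (x axis, percent) and B cells (y axis, percent) at TSS windows, gene bodies and last exons; called genes are purple with bars of 1 SD over the libraries. Most genes lie on the diagonal, and Zfp408 and Zfp523 lie farthest from it, on opposite sides, at last exons.

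Last exons held the widest differences. Zfp408 encodes a zinc finger protein whose human counterpart is linked to inherited retinal disease, and all 11 of its fingers lie in the last exon. Its last exon ranged from 89.8 to 96.7% in B cells (median 94.0%) and from 28.3 to 48.0% in T cells (median 37.7%). The pooled difference was 55.5 points (adjusted p = 9.35e-09, quasi-binomial F test; exact permutation p = 0.000155), with no overlap between the groups. The gene body, which contains that exon, was at 67.8, 71.1 and 78.5% (lowest, median, highest) in B cells and at 37.7, 43.8 and 51.4% in T cells, a difference of 27.1 points (adjusted p = 1.15e-06, quasi-binomial F test; exact permutation p = 0.000155). Without the last exon and TSS window the body differed by 8.03 points, and the call was lost.

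Single CpGs show where the difference lies. A block was defined as a run with at least 3 CpGs whose pooled levels differed by at least 30 points in the same direction. Each of these needed 20 or more calls in each cell type. Single CpGs that missed these limits were allowed between them, more than once per block, and count in the CpG numbers given. Blocks are descriptions without a test. Zfp408 had 4 blocks, all in the last exon. The largest, chr2:91645696-91646354, spans 659 bp and 21 CpGs of coding sequence and overlaps the stretch printed above. It was at 84.4 to 92.5% in B cells and at 4.72 to 10.9% in T cells, nearly unmethylated in every T cell library. Arhgap1, the gene of a GTPase activating protein, starts 69 bp from the start of Zfp408 on the other side.

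Zfp523, a relative of the transcriptional activator Zfp143, was called in the opposite direction at its last exon. B cell libraries lay at 6.94 to 23.0% (median 14%) and T cell libraries at 78.4 to 85.5% (median 82.3%). Methylation was lower in B cells by 67.1 points without overlap, the largest difference among the members (adjusted p = 2.19e-08, quasi-binomial F test; exact permutation p = 0.000155). None of its 7 fingers is encoded there. The block, chr17:28205146-28206076, holds 19 CpGs over 931 bp and runs past the end of the gene. The next start is that of Def6, a guanine nucleotide exchange factor of lymphocytes, 2280 bp from the middle of the exon. Within Zfp523, 2 smaller blocks at chr17:28201266-28201299 and chr17:28201352-28201507 went the other way, with medians of 98.3 and 94.6% in B and 29.9 and 46.7% in T cells.

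Zfp51, Zfp53 and Zfp54 are KRAB genes that follow each other on chromosome 17 in a run of 9 members (chr17:21383748-21769342). These 3 were called at the last exon with higher levels in B cells. The other members of the run were not called in any window. The last exon of Zfp51 was at 50.7, 62.4 and 74.7% (lowest, median, highest) in B and at 16.9, 22.5 and 35.3% in T cells. The groups did not overlap and differed by 39.9 points (adjusted p = 3.44e-05, quasi-binomial F test; exact permutation p = 0.000155). Its block in the last exon, chr17:21463521-21463582, covers 4 CpGs of 11 in the exon and was at 0% in all 8 T cell libraries and at a median of 85.4% in B cells.

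Zfp54 ranged from 95.5 to 98.7% in B cells (median 97.2%) and from 72.9 to 92.3% in T cells (median 78.5%), a difference of 16.3 points (adjusted p = 1.27e-05, quasi-binomial F test; exact permutation p = 0.000155). No library of B cells fell to the T cell range. In Zfp53 the groups overlapped, with 92.7, 97.8 and 100% in B and 76.2, 89.1 and 97% in T cells (lowest, median, highest). The difference was 10.4 points (adjusted p = 0.00896, quasi-binomial F test; exact permutation p = 0.00342), on a median of 42 calls per library. It was 4.995 points in BS and 14.99 in oxBS libraries. It dropped under 10 points, and out of the calls, without B cell male oxBS replicate 2 (9.98), T cell female oxBS replicate 16 (8.68) or T cell male oxBS replicate 8 (8.60).

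The bodies of Zfp51 and Zfp53 were called too. That of Zfp53 was at 60 to 73.3% in B cells (median 68.0%) and at 44.9 to 58.4% in T cells (median 53.8%), apart by 15.3 points (adjusted p = 0.000654, quasi-binomial F test; exact permutation p = 0.000155). Zfp53 holds an intronic block at chr17:21507292-21507518 with 8 CpGs, at a median of 97.4% in B and 14.4% in T cells. The body of Zfp51 was at 55.4 to 72.6% in B cells (median 60.8%) and at 43.6 to 55.7% in T cells (median 52.0%), with a slight overlap and a difference of 11.6 points (adjusted p = 0.0073, quasi-binomial F test; exact permutation p = 0.000311). Without the last exon and TSS window the body differed by 8.66 points and was not called.

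Zfp870, a KRAB gene of the chromosome 17 run from Zfp871 to Zfp563, was called at the last exon, where B cells lay at 94.6 to 96.4% (median 95.6%) and T cells at 76.5 to 83.3% (median 80.8%). The groups were tight and did not overlap, and differed by 15.3 points (adjusted p = 1.32e-08, quasi-binomial F test; exact permutation p = 0.000155). The coding part with the 10 fingers differed by 0.992 points and was not called, and both blocks of the gene lay in untranslated sequence. The longer, a block with 15 CpGs over 902 bp, chr17:32880467-32881368, was at a median of 90.8% in B and 21.6% in T cells. The gene body differed by 10.6 points, from 75.4, 80.2 and 84.5% in B to 64.8, 69.8 and 72.6% in T cells (adjusted p = 2.22e-05, quasi-binomial F test; exact permutation p = 0.000155). Without the last exon and TSS window the body differed by 3.57 points, and without T cell male oxBS replicate 8 by 9.99 points, and neither was called.

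**Figure D4:**
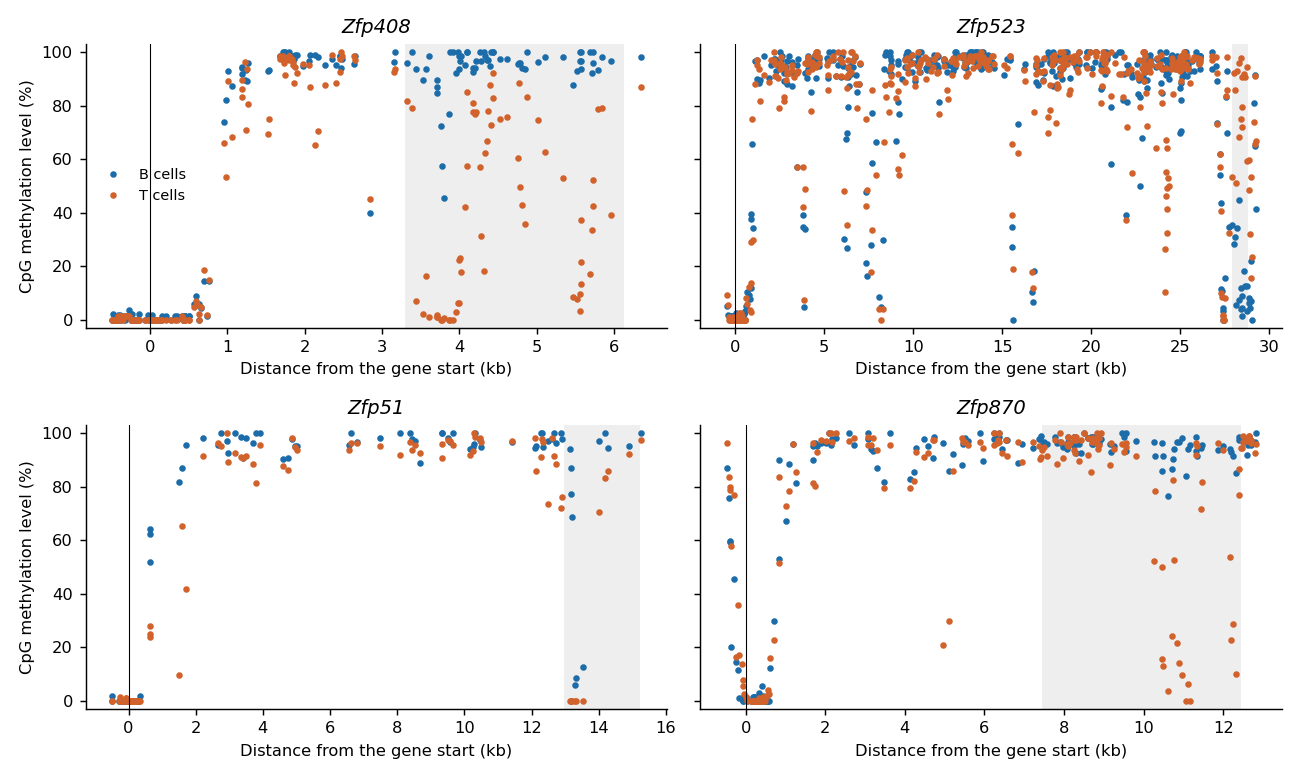
Pooled methylation level (percent) of single CpGs in B and T cells against the distance from the gene start (kb) for Zfp408, Zfp523, Zfp51 and Zfp870. The last exon is shaded grey. The cell types run together over most of each gene and part in short stretches.

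Zfp683 encodes Hobit, a transcription factor of tissue-resident lymphocytes. Its last exon was at 74.1, 82.4 and 93.1% (lowest, median, highest) in B cells and at 38.4, 49.4 and 70.7% in T cells, higher in B cells by 29.9 points without overlap (adjusted p = 0.000112, quasi-binomial F test; exact permutation p = 0.000155). It has no finger in that exon. Of its 2 blocks, chr4:134058622-134058797 at the last exon was lower in T cells and chr4:134055100-134055127 in an intron lower in B cells (medians 42.0% in B and 93.0% in T cells). The start of Crybg2 lies 1995 bp from the middle of the exon.

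Zfp120 and Zfp72 had smaller differences on a high base when the whole last exon was pooled. Under the alternatives run, which include other windows, the widest difference was 45.1 points in Zfp120 and 22.5 in Zfp72. In Zfp120, a KRAB gene of chromosome 2, B cells lay at 96.8 to 100% (median 98.0%) and T cells at 81.5 to 92.1% (median 87.4%), a difference of 11.1 points (adjusted p = 0.00013, quasi-binomial F test; exact permutation p = 0.000155). Its block, chr2:150117715-150117899, has 3 CpGs and lies in the coding sequence printed above. In Zfp72 B cells were at 92.9, 96.0 and 98.2% and T cells at 79, 85.5 and 90.9% (lowest, median, highest), a difference of 10.6 points (adjusted p = 0.00031, quasi-binomial F test; exact permutation p = 0.000155). It fell to 9.62 points, and out of the calls, without T cell male BS replicate 5. Neither gene overlapped between the cell types.

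Zfp260 was called at the gene body only, with 70.7 to 81.3% in B cells (median 74.5%) and 53.0 to 67.8% in T cells (median 58.3%). The difference was 15.4 points without overlap (adjusted p = 5.6e-06, quasi-binomial F test; exact permutation p = 0.000155). It lies in the chromosome 7 run of 15 genes, and none of the other 14 was called. A single block of 519 bp and 16 CpGs, chr7:30099111-30099629, over an untranslated exon and intron, was at 82.4 to 94.2% in B and at 11.7 to 28.8% in T cells.

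**Figure D5:**
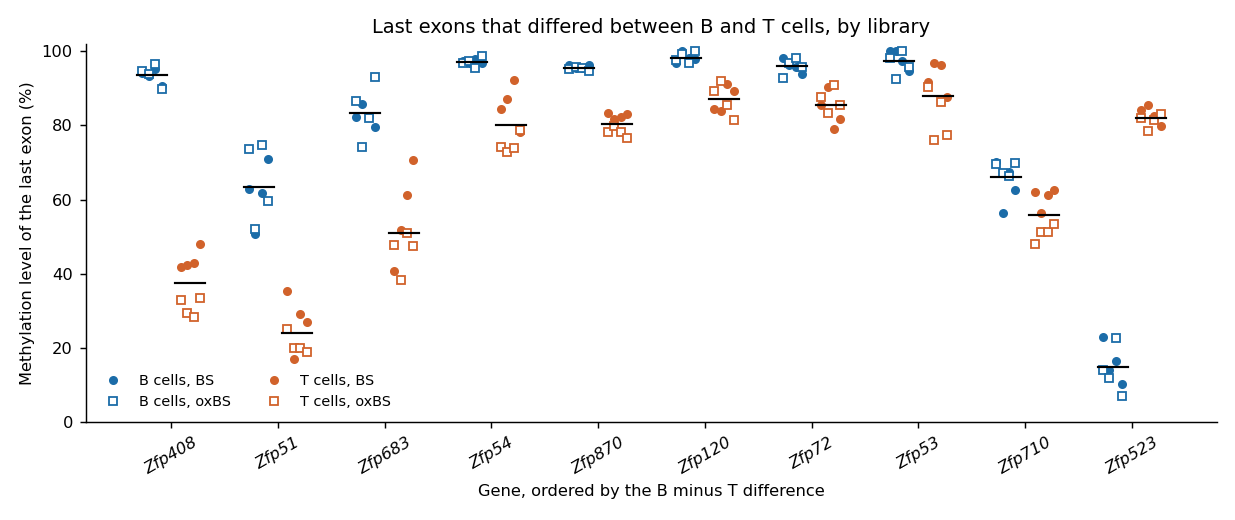
Last exon level (percent) of the 10 called Zfp genes in each library; blue is B cells, orange T cells, filled symbols BS and open squares oxBS, and the bar is the mean of the 8 libraries. Only Zfp53 and Zfp710 overlap between the cell types, and Zfp523 is the single gene with lower levels in B cells.

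Zfp710, a gene with no KRAB pattern and fingers outside the last exon, was called both at its start and its end, in opposite directions. At the TSS window B cells lay at 0.990 to 5.29% (median 2.77%) and T cells at 7.88 to 20.4% (median 16.3%), lower in B cells by 12.9 points without overlap (adjusted p = 0.000105, quasi-binomial F test; exact permutation p = 0.000155). The last exon was at 56.4, 67.4 and 70.1% in B and 48.1, 54.9 and 62.5% in T cells (lowest, median, highest), with overlap and a difference of 10.1 points (adjusted p = 0.0229, quasi-binomial F test; exact permutation p = 0.00202). This call sat at the limit, with 3.69 points in BS and 17.3 in oxBS libraries and 4.35 in the coding part, which was not called. It was lost without any 1 of 9 libraries, the differences ranging from 8.90 to 11.2 points over the 16 fits with 1 library left out: B cell female BS replicate 10, male BS replicate 1, female oxBS replicates 9 and 11 and male oxBS replicate 3, and T cell female oxBS replicates 14 and 16 and male oxBS replicates 6 and 8. The gene held 10 of the 29 blocks found in 14 called genes, and they went both ways, the first before the gene start at chr7:80024458-80024581 (medians 3.70% in B and 62.4% in T cells). In all 10 genes with a block 21 blocks were lower in T cells and 8 lower in B cells, with a median length of 133 bp.

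The other TSS calls were higher in B cells. Zfp626, a KRAB gene of chromosome 7, was methylated in both cell types, at 91.7 to 97.2% in B cells (median 93.8%) and 70.0 to 91.6% in T cells (median 85.6%), apart by 10.8 points (adjusted p = 0.0136, quasi-binomial F test; exact permutation p = 0.000155). The groups met without overlap, and the difference was 9.14 points without T cell female oxBS replicate 14 and 8.93 without replicate 16, when the call was lost. It was 4.89 points in BS and 16.7 in oxBS libraries, and 6.23 in males and 15.4 in females. Repeated words, as counted above, made up 72.9% of the TSS window of Zfp626. In the other genes called at TSS windows they made up 4.54% (Zfp217) and 0% (Zfp46 and Zfp710). The part of reads from other copies in the difference of Zfp626 was not tested. Zfp46 lay at 69.8 to 78.5% in B cells (median 75.3%) and 56.1 to 68.8% in T cells (median 62.8%), a difference of 11.3 points (adjusted p = 0.0047, quasi-binomial F test; exact permutation p = 0.000155). Zfp217, whose human counterpart is amplified in carcinomas, had overlapping groups of 47.1, 59.2 and 73.7% in B and 23.3, 36.3 and 55.3% in T cells (lowest, median, highest), apart by 22.3 points (adjusted p = 0.0208, quasi-binomial F test; exact permutation p = 0.00202). The difference was 9.74 points in BS libraries and 36.8 in oxBS libraries. At the starts of the transcripts with the longest coding sequence Zfp46 and Zfp217 were at 0.260% and 0.265%, and differed by 0.0799 and 0.321 points, so neither was called there. Zfp46 differed by 4.31 points within 250 bp of the gene start and was not called.

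Of the members with a known role in lymphocytes, imprinting or the germ line, only Zfp683 was called between the cell types, and the others are given with their values. Zfp57, the KRAB protein that keeps methylation at imprinted regions, was methylated at its start, with 92.5 ± 2.57% in B and 94.3 ± 2.0% in T cells (SD, n = 8). Its last exon was at 54.2 ± 7.76% and 49.4 ± 9.0%. Neither window was called. Its body (47.2 ± 3.15% and 42.5 ± 3.22%) differed by 4.64 points, under the limit of 10.

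Zfp335, which is needed for T cell maturation, had a nearly unmethylated start (medians 0.213% in B and 0.0806% in T cells). Its body was at 67.8 to 74.8% in B cells and 59.2 to 64.2% in T cells, without overlap. The difference of 8.23 points passed the adjusted p (0.000135, quasi-binomial F test; exact permutation p = 0.000155) but not the limit on size. Zfp318, which controls the alternative expression of IgD in B cells, had medians of 0.164% and 0.154% at its start and 63.6% and 62.1% in its body, with no call in any window. Zfp143 was at medians of 0.235% and 0.0825% at the start.

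Zfp568, a KRAB repressor of a placental Igf2 transcript, was at 0.863 ± 1.15% in B and 0.152 ± 0.139% in T cells at the start and at 96.9 ± 0.892% and 96.6 ± 0.838% in the last exon (SD, n = 8). Zfp708, another KRAB protein, was methylated at the start, with 95.4 ± 2.08% and 93.7 ± 1.87%. Zfp541, a gene of male meiosis, was at 76.3 ± 5.23% and 82.3 ± 3.63% at its start, and Zfp37 at 82.5 ± 2.81% and 84.8 ± 1.92%, with 9.46% at its other start, 22601 bp away. Zfp36 stood between the classes at its TSS window, with 23.2 ± 7.67% and 21.4 ± 8.80%. None of these was called between B and T cells.

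BS was compared with oxBS, which leaves out 5hmC, with 4 libraries of each kind per cell type and a limit of 5 points. The study describes hydroxymethylation in these samples as very low. At gene bodies in B cells BS exceeded oxBS in 76 of 211 members only. Whether the differences come from 5hmC or from other differences between the libraries was not tested. In T cells no member was called at TSS windows (background 0%, 17 of 205 at an unadjusted p under 0.05) or at last exons (0%, 29 of 201), and 2 of 211 were called at gene bodies, against 3.34% of all genes, with 31 at an unadjusted p under 0.05. Of all genes 1310 of 19687 at TSS windows, 2065 of 18396 at last exons and 4153 of 21144 at gene bodies had such a p. In B cells no member was called in any window, against 0% of all genes in each. An unadjusted p under 0.05 was found in 8 members at TSS windows, 10 at gene bodies and 2 at last exons. Over all genes it was found in 634 of 19579, 760 of 21140 and 257 of 18204. The median BS minus oxBS difference of members in T cells was 0.36 points at TSS windows, 1.33 at gene bodies and 1.16 at last exons (all genes 0.22, 0.96 and 1.09), and in B cells it was −0.08, −0.54 and 0.04. The widest TSS differences among the named genes in T cells were those of Zfp217 (BS higher by 23.6 points, adjusted p = 0.73, quasi-binomial F test) and Zfp36 (16 points, adjusted p = 0.73). Members without a KRAB pattern had a median of 2.01 points at gene bodies in T cells and those with one 1.09 points, a difference that was not tested.

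Both genes called between the assays were also called between the cell types. The body of Zfp408 in T cells was at 51.1, 46.9, 51.4 and 48.6% in BS and at 40.6, 38.5, 37.7 and 40.8% in oxBS libraries. The difference was 10.1 points with no overlap (adjusted p = 0.0242, quasi-binomial F test), the same order as in its last exon, where BS libraries were at 41.9, 42.4, 43.0 and 48.0% and oxBS libraries at 32.8, 29.3, 28.3 and 33.5%. That of Zfp260 was at 64.5, 59.7, 67.8 and 63.6% in BS and at 54.3, 53.0, 54.7 and 56.9% in oxBS libraries, also without overlap (9.29 points, adjusted p = 0.042, quasi-binomial F test). Neither call was firm. With any 1 of the 8 T cell libraries left out Zfp260 was not called (8.09 to 10.5 points), and Zfp408 (9.5 to 10.9 points) was called only without T cell female BS replicate 15.

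The test of whether the assay difference itself differed between T and B cells passed for 2 of 211 members at gene bodies, against 4.24% of all genes. An unadjusted p under 0.05 was found in 30 members and in 3807 of all 21162 genes. In Zfp710 BS exceeded oxBS by 4.81 points in T cells and fell below it in B cells (−1.78), a difference between the cell types of 6.59 points (adjusted p = 0.019, quasi-binomial F test). In Zfp106 the values were 3.24 and −1.26 points, apart by 4.5 (adjusted p = 0.0321, quasi-binomial F test). At TSS windows and last exons no member passed, with 15 and 22 at an unadjusted p under 0.05, and the same test called 0% and 0.027% of all genes. Of all genes 1561 of 19748 and 1687 of 18522 had an unadjusted p under 0.05.

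No member was called between males and females by the same model with a limit of 5 points. Without that limit Zfp865 passed at TSS windows (0.397 points, adjusted p = 0.0274, quasi-binomial F test). At gene bodies Zfp28 passed (3.35 points, adjusted p = 0.00984, quasi-binomial F test). Over all genes 489 and 293 passed in these windows without the limit. The background was 2.36% of genes at TSS windows, 0.955% at gene bodies and 0.313% at last exons, and of the 466, 202 and 58 genes called, 1, 0 and 0 were autosomal. Of the members 7, 12 and 5 had an unadjusted p under 0.05, and the largest differences were 7.67, 7.57 and 9.70 points. Of all genes, with those of the sex chromosomes, 1478 of 19748, 1343 of 21162 and 837 of 18522 had an unadjusted p under 0.05.

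The partners through which KRAB proteins act were looked at as a list of 21 genes. At TSS windows 0 of 21 were called, with 15 higher in B cells and a median difference of 0.22 points, close to the 0.26 of all genes. At gene bodies 0 of 21 were called, and 20 were higher in B cells (median 3.21 points), as were 15470 of all 21162 genes tested (median 1.02 points). At last exons 2 of 16 were called, beside 5.45% of all genes. Chd4, the ATPase of the NuRD complex, was at 86.9 to 94.4% in B cells (median 91.3%) and 57 to 84.8% in T cells (median 70.9%), higher in B cells by 20.3 points without overlap (adjusted p = 3e-05, quasi-binomial F test). Smarcad1, a chromatin remodeller, was at 67.4 to 88.5% in B cells (median 82.1%) and 84.3 to 100% in T cells (median 92.8%), lower in B cells by 12.1 points with overlap (adjusted p = 0.0209, quasi-binomial F test). Trim28, the corepressor itself, and Dnmt1, the maintenance methyltransferase, were not called, and at their annotated gene starts they were at 95.2% and 97% in B cells. Levels at other transcript starts of Trim28 and Dnmt1 are not given here. In Zfp473 the annotated gene start was methylated while another start was not, so these values need not describe the promoter in use.

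Among libraries, B cell male oxBS replicate 2 was highest over the 163 members with low TSS levels, with a median of 3.49% against 1.36 to 2.69% in the other 15. At gene bodies B cell male oxBS replicate 3 was highest, with a median of 78.1%, and B cell libraries lay at 74.9 to 78.1% and T cell libraries at 71.4 to 74.7%. Leaving out either library kept the members' calls between B and T cells except those of Zfp53 and Zfp710 at last exons, where the lost calls are given. The difference of assay effects in Zfp106 and Zfp710 was not refitted with single libraries left out.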

How the data were processed

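For each of the 16 libraries the authors deposited, per CpG with both strands combined, a count of unmethylated and a count of methylated calls, as raw counts without normalization. CpGs without a call are not listed. Per the submitters' processing notes and the study's methods, reads were trimmed with Trim Galore 0.6.0, aligned to mm10 (GRCm38) with Bismark 0.20.0 at default settings, which keeps reads with a single best position, and filtered with SAMtools 1.3.1 at a mapping quality of at least 10. Libraries held 123346598 to 170653234 calls.

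Calls were pooled over the TSS window (500 bp on either side), gene body and last exon of every GENCODE vM21 protein-coding gene in Python 3.11.15 with numpy 2.4.6, pandas 2.3.3 and scipy 1.17.1. A library entered a test with at least 20 calls over at least 3 CpGs, and a gene with at least 5 libraries per cell type, or 3 per assay. A quasi-binomial logistic model with an F test on the deviance and a dispersion held at 1 or more was fitted to all genes, with sex and assay, or cell type, as covariates, and p-values were Benjamini-Hochberg adjusted over all genes tested in that window. It was tested on simulated calls. Other windows, filters, limits and subsets of libraries were tried as alternatives. Calls needed an adjusted p under 0.05 and a pooled difference of at least 10 points between cell types or 5 between assays and sexes, and no limit was set for the difference of assay effects. Apart from the limit given for Zfp51, intervals over calls are not given, because calls of 1 read are not independent.

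The members, lists and named genes were chosen with earlier results of these data known. Genes named were all called members, the extremes of TSS windows and last exons (6 highest and 3 lowest, 4 lowest and 2 highest) and members with a known role. Zfp264 was on that list but is no protein-coding gene in vM21. KRAB and finger patterns were read from GENCODE coding sequences, since no RefSeq protein table was used, a change from the plan. Promoter sequences are from the RefSeq table (GRCm38.p6), other sequences from the genome. No libraries were left out.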

Additional observations from a re-analysis of the deposited data

Results flagged for a closer look

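The search covered 120 groups of 8 libraries of the named genes. Each gene entered in the windows it was named for, and genes with a known role entered in every window. Of these groups 12 held 1 library far from the other 7 by Dixon's criterion, where chance gives about 1 in 20 for normally distributed values. Levels near 0%, as in the TSS windows below, are not distributed so. The 12 can therefore not be read against that rate. At TSS windows B cell male oxBS replicate 2 stood out in 3 of the unmethylated genes searched. It was at 4.74% in Zfp143 (others at most 0.559%), 2.75% in Zfp318 (others at most 0.338%) and 1.52% in Zfp335 (others at most 0.439%). Other groups of the named genes were not searched, among them the TSS window of Zfp959, where this library was at 1.43% (others at most 0.277%). T cell female BS replicate 13 was at 2.15% in Zfp143, and T cell female BS replicate 15 at 1.07% in Zfp318 and 0.507% in Zfp592. T cell male BS replicate 5 was at 0.987% in Zfp51, where the other 7 T cell libraries were at 0%. At gene bodies B cell male oxBS replicate 3 was at 73.0% in Zfp318 (others 59.7 to 65.6%) and 74.8% in Zfp335 (others 67.8 to 69.7%). At last exons B cell male BS replicate 1 was at 98.3% in Zfp143, B cell female BS replicate 10 at 88.9% in Zfp335 and T cell male BS replicate 5 at 0.341% in Zfp771. The BS minus oxBS difference at gene bodies differed between T and B cells in Zfp106 by 4.5 points and in Zfp710 by 6.59 points (interaction term of the quasi-binomial model over 16 libraries).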

How the results depend on the processing

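No call of a member changed direction under any alternative run. Differences that were not called did so in some genes. That of Zfp36 at the TSS window, B minus T cells, was −9.43 points in BS and 11.7 in oxBS libraries. That of Zfp710 at the gene body was −3.14 and 3.45 points. The number of members called between B and T cells at TSS windows, 4, was 1 with a limit of 20 points, 0 in BS libraries alone, 0 in oxBS alone, 0 in males alone and 0 in females alone, 1 with 1000 bp on either side and 2 at the start of the longest coding transcript. At gene bodies, 5 became 22 with a limit of 5 points, 1 with 20 points, 2 in BS libraries alone and 2 in males alone. At last exons, 10 became 4 with 20 points, 4 in BS libraries alone, 5 in males alone and 6 in females alone. With the mean of CpG fractions and an exact permutation test the counts were 3, 5 and 7, and Zfp46 at the TSS window, Zfp870 at the body and Zfp53, Zfp710 and Zfp72 at last exons lost their calls (7.83, 9.61, 9.42, 9.60 and 7.97 points). Bodies without the TSS window and last exon gave 4 calls, without Zfp408, Zfp51 and Zfp870, and 250 bp on either side of the start gave 3, without Zfp46. The fits on BS, oxBS, male or female libraries alone hold 8 of the 16 libraries. Counts over all genes under these alternatives are not given here. For BS against oxBS in T cells at gene bodies, 2 became 1 without CpGs over 3 times the mean depth, 4 with no limit on the difference and 0 to 1 with 1 library left out, and at last exons 1 member was called when the dispersion was not held at 1. The members' median TSS level of 3.70% was 3.14% at the start of the longest coding transcript, an alternative chosen after seeing the data. No paired analysis was possible because the replicate numbers of the labels are unique to each library and no source names which BS and oxBS libraries share DNA. Depth limited the members with repeated sequence and windows with few CpGs, such as the last exon of Zfp53.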
